A study of Mus musculus with 6 samples.

Results

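The genes described here are 40 genes of glutathione metabolism and antioxidant defence, measured in the subcutaneous inguinal fat of control and Cdo1AKO mice (white adipose tissue). The genes were named in a list made for this purpose and found by symbol in the deposited table, where each of the 40 matched 1 row of 54532. All 40 passed the filter on low counts and were among the 16623 genes tested. They comprised 5 genes of glutathione synthesis, recycling and breakdown, 5 glutathione peroxidases, 13 glutathione transferases, 4 genes of the NRF2 system, 9 of the thioredoxin and peroxiredoxin system, and 4 superoxide dismutase and catalase genes.

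Bulk RNA sequencing covered 6 samples, 3 per group. Controls carried a floxed Cdo1 gene (Cdo1flox/flox, called WT in the genotype label), and Cdo1AKO mice lacked Cdo1 in adipose tissue. High-fat feeding began at 8 weeks of age and lasted 15 weeks in both groups, so no lean group bears on the results. The Cre driver, the deleted exons, the sex and the number of animals behind each sample are not given in the sources used here. Whether each replicate is its own animal is not stated either, and every p-value below therefore reflects the scatter among 6 samples that may be partly technical.

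Glutathione is a tripeptide of glutamate, cysteine and glycine, and the supply of cysteine commonly limits its synthesis. CDO1, cysteine dioxygenase, oxidises cysteine and so draws on the same pool. Glutathione peroxidases use glutathione to reduce peroxides, glutathione transferases join it to electrophiles, and the thioredoxin and peroxiredoxin system works beside them. The transcription factor NRF2, encoded by Nfe2l2 and held in check by KEAP1, raises many of these genes under oxidative or electrophilic stress.

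Libraries held 16275184 to 19205804 counts, of which the 40 genes took 0.813% to 1.1% in controls and 0.688% to 0.848% in Cdo1AKO. Levels are given as CPM, counts per 1000000 counts on TMM-scaled library sizes, in the order of replicates 1 to 3. Cdo1 itself stood at 887, 432 and 631 CPM in controls and at 123, 392 and 134 CPM in Cdo1AKO, without passing the test (adjusted p = 0.416 by edgeR). A pair of libraries stood apart: the median of 15 lymph node and B cell markers was 0.0614 CPM in control 1 and 0.322 CPM in Cdo1AKO 2, against 53.1 to 98.6 CPM in the other 4 libraries. Cdo1AKO 1 and 3 were unusually alike, with a chi-square of 5.63 per gene against 23.0 to 80.2 for pairs of controls and 194 to 203 for Cdo1AKO 2 with either. All 12 adipocyte markers were detected in every library, and their summed level was 34600 to 49100 CPM in controls and 22400 to 44500 CPM in Cdo1AKO. In bulk tissue, fewer cells of a type and less RNA per cell cannot be told apart.

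The clearest differences lay in 3 genes. Gpx3, which encodes the secreted glutathione peroxidase, and the theta-class transferase genes Gstt1 and Gstt2 were lower in every Cdo1AKO library than in any control, at 0.337, 0.509 and 0.562 times the control mean. Catalase (Cat) followed at 0.537 times, with overlapping groups. None of the 40 genes passed the edgeR quasi-likelihood test at adjusted p under 0.05, beside 0 of all 16623 genes tested (0.00%). At an unadjusted p under 0.05 stood 2 members that were higher, against 4.66% of all tested genes, and 5 that were lower, against 5.71%. DESeq2 called 0 members, beside 0.914% of the genes it tested, with 9 at an unadjusted p under 0.05 beside 6.65% of all its genes. Limma-voom called 0 members, with 7 at an unadjusted p under 0.05 beside 9.91% of all tested genes. With 3 samples against 3, an exact permutation test of a single gene cannot go below p = 0.10.

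Groups did not overlap for 11 members. The 4 that were higher in Cdo1AKO were Ggt5, Gpx7, Mgst2 and Prdx4, beside 8.87% of all tested genes. The 7 that were lower were Gsr, Gpx1, Gpx3, Gstm1, Gstt1, Gstt2 and Nfe2l2, beside 9.73% of all tested genes. Over the 40 members the median log2 fold change of Cdo1AKO over control was -0.07, with 24 negative values, and over all tested genes it was 0.06. The plot of every gene in every library shows where the 6 libraries lay.

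**Figure D1:**
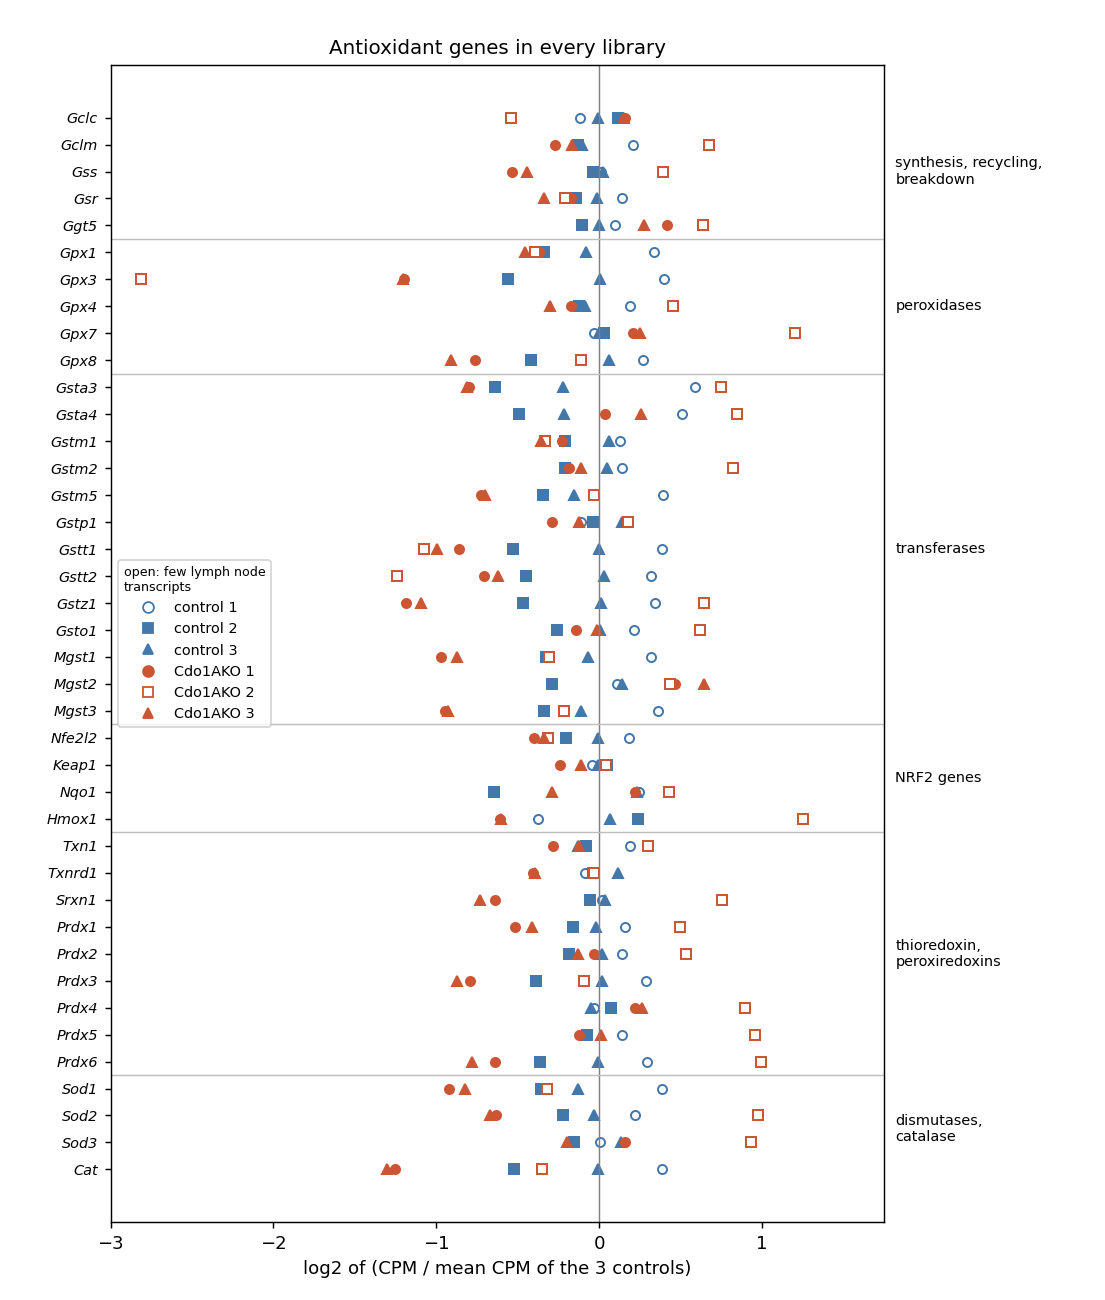
Level of the 40 genes in each library as log2 of CPM over the mean CPM of the 3 controls, grouped by role. Blue marks are controls and red marks Cdo1AKO; open marks are control 1 and Cdo1AKO 2, which had few lymph node transcripts. Gpx3, Gstt1 and Gstt2 lay below the controls in all 3 Cdo1AKO libraries, while for 32 of 40 genes Cdo1AKO 2 was the highest of its group.

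To set these genes beside their start regions, the 250 bases before each RefSeq start (build GRCm38.p6) were searched for TGACNNNGC, the core of the antioxidant response element to which NRF2 binds with small MAF proteins. Both strands were read. The table of RefSeq start regions held 32 of the 40 members, and Gclc, Gsr, Ggt5, Gsta4, Gstt2, Hmox1, Prdx6 and Sod3 had no entry. The motif was in a window of 8 of the 32 members (25.0%), against 11.5% of 27025 genes with such windows. The list was chosen to include NRF2 targets, so the higher share may come from that choice and was not tested. The matches, read from the TGAC end, were TGACGGTGC for Gclm, TGACATTGC for Gsta3, TGACCACGC for Gstm5, TGACCGTGC for Mgst1, TGACTCCGC for Nfe2l2, TGACAAAGC for Txnrd1, TGACTCAGC for Prdx1 and TGACCACGC for Sod1. A match is a string of letters and not a measured site. The windows of Gpx3 and Gstt1 are shown because these genes differed most, those of Nfe2l2, Mgst1 and Prdx1 because they hold the motif and belong to 3 patterns described below; capitals mark the motif and all run 5′ to 3′ on the gene's strand.
Gpx3, chr11:54902604-54902853, plus strand: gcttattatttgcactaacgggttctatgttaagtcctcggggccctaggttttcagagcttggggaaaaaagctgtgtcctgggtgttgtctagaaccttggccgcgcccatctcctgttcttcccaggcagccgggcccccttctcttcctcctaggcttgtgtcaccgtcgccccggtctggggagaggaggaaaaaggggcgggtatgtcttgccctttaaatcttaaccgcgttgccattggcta
Gstt1, chr10:75797732-75797981, minus strand: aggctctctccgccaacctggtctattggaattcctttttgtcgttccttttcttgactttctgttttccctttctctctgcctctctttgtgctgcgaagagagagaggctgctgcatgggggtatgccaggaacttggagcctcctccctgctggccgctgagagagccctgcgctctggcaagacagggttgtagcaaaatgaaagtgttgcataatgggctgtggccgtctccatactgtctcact
Nfe2l2, chr2:75704664-75704913, minus strand: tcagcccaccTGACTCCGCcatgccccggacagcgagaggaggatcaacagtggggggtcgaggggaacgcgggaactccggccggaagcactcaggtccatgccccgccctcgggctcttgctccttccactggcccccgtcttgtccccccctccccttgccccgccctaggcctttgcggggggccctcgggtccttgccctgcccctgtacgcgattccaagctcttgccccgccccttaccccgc
Mgst1, chr6:138140277-138140526, plus strand: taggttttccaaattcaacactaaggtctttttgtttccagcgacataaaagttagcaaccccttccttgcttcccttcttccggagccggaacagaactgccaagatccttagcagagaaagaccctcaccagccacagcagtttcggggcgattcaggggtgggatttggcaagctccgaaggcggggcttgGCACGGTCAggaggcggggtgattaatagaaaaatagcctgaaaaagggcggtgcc
Prdx1, chr4:116685349-116685598, plus strand: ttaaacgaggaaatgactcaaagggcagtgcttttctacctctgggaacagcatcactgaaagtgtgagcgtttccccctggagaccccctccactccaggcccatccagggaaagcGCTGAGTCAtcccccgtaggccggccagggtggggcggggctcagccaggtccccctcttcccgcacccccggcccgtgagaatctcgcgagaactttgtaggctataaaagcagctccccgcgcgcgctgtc
No capitals stand in the windows of Gpx3 and Gstt1, which says only that these letters are not there. Both windows lie inside the deposited gene spans, chr11:54902453-54910377 for Gpx3 and chr10:75783813-75798584 for Gstt1. The bases before the starts of those spans were not searched. The motif lay 240 bases before the start of Nfe2l2, 56 before the Mgst1 start shown and 133 before that of Prdx1. Another RefSeq start of Mgst1, with the window chr6:138141337-138141586, had no motif, and other windows of Txnrd1 also lacked it.

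None of the 5 genes that make, recycle or break down glutathione passed the test. Gclc and Gclm encode the catalytic and the modifier subunit of glutamate-cysteine ligase, which carries out the rate-limiting step of glutathione synthesis. Gclc had 41.0, 48.1 and 44.2 CPM in controls and 49.5, 30.6 and 49.5 CPM in Cdo1AKO, with a log2 fold change of -0.04 ± 0.22 (SE, n = 3 per group). Only Cdo1AKO 2 lay below the controls, and the other 2 Cdo1AKO libraries lay just above them. Gclm had 42.5, 33.5 and 34.2 CPM in controls and 30.4, 58.7 and 32.7 CPM in Cdo1AKO (0.15 ± 0.29), so that in Cdo1AKO 2 the modifier was at its highest where the catalytic subunit was at its lowest. Glutathione synthetase Gss, which adds glycine, had 28.3, 27.4 and 28.6 CPM in controls and 19.4, 36.9 and 20.7 CPM in Cdo1AKO. Its controls spread little (SD 0.650) and the Cdo1AKO libraries lay on both sides of them.

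Glutathione reductase Gsr, which returns oxidised glutathione to its reduced form, had 63.0, 51.8 and 56.7 CPM in controls and 50.7, 49.5 and 45.2 CPM in Cdo1AKO. The groups were separate by a narrow margin, and the log2 fold change of -0.24 ± 0.14 did not pass the test (adjusted p = 0.597 by edgeR). Ggt5, a surface peptidase that cleaves glutathione conjugates, had 30.5, 26.4 and 28.4 CPM in controls and 38.04, 44.2 and 34.4 CPM in Cdo1AKO. All Cdo1AKO libraries lay above all controls, with a log2 fold change of 0.45 ± 0.15 (adjusted p = 0.416 by edgeR).

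Among the 5 glutathione peroxidases 3 had a negative and 2 a positive log2 fold change, and none passed the test. Gpx3 (chr11:54902453-54910377, mm10, plus strand) had 1905, 983 and 1451 CPM in controls and 631, 206 and 627 CPM in Cdo1AKO. Every Cdo1AKO library was below the lowest control, and Cdo1AKO 2 was far below the other 2. The means were 1447 ± 461 and 488 ± 244 CPM (SD, n = 3), and the log2 fold change of -1.57 ± 0.50 did not pass (adjusted p = 0.396 by edgeR). It stayed between -1.80 and -1.20 when each library was left out in turn. In the authors' deposited table Gpx3 had a log2 fold change of -1.57 and an adjusted p of 0.0577.

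Gpx1, the abundant cytosolic peroxidase, had 1136, 712 and 851 CPM in controls and 698, 685 and 656 CPM in Cdo1AKO. Its Cdo1AKO libraries were close together just under the lowest control (log2 fold change -0.40 ± 0.23). Gpx4, which reduces lipid hydroperoxides in membranes and protects against ferroptosis, had 531, 427 and 439 CPM in controls and 414, 637 and 377 CPM in Cdo1AKO. Its groups overlapped, with a log2 fold change of 0.03 ± 0.25; the table also counts 62.9 to 108 CPM at the pseudogene Gpx4-ps2, so reads of the 2 may be shared. The endoplasmic reticulum members differed in sign: Gpx7 had 16.3, 17.1 and 16.7 CPM in controls and 19.3, 38.5 and 19.9 CPM in Cdo1AKO, and Gpx8 averaged 26.1 ± 6.06 CPM in controls and 17.8 ± 5.56 CPM in Cdo1AKO (SD, n = 3). The log2 fold change of Gpx7 was 0.63 ± 0.30 and dropped to 0.23 without Cdo1AKO 2.

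Among 13 glutathione transferase genes, 9 had a negative and 4 a positive log2 fold change, and none passed the test. Gstt1 and Gstt2, neighbours on chromosome 10 (chr10:75783813-75798584 and chr10:75831114-75837424, mm10, minus strand), encode theta-class transferases of the cytosol. Gstt1 had 208, 111 and 160 CPM in controls and 87.8, 75.7 and 79.9 CPM in Cdo1AKO. The 3 Cdo1AKO values were close together under a wide spread of controls, with a log2 fold change of -0.97 ± 0.25 (adjusted p = 0.345 by edgeR), the smallest p of the 40. Gstt2 had 168, 98.7 and 138 CPM in controls and 82.5, 57.0 and 87.6 CPM in Cdo1AKO, with a log2 fold change of -0.83 ± 0.26 (adjusted p = 0.390 by edgeR). Gstt3, another theta gene beside Gstt1 that was named here after its values were seen, had 18.2, 11.1 and 13.7 CPM in controls and 12.2, 9.59 and 11.2 CPM in Cdo1AKO, with overlapping groups. In the authors' deposited table the adjusted p was 0.0647 for Gstt1 and 0.183 for Gstt2.

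The microsomal transferases split. Mgst1, an abundant membrane transferase with peroxidase activity, had 1121, 716 and 859 CPM in controls and 458, 726 and 491 CPM in Cdo1AKO. Cdo1AKO 1 and 3 lay below all controls and Cdo1AKO 2 among them (log2 fold change -0.69 ± 0.28). Mgst3 showed the same arrangement, with 371, 229 and 267 CPM in controls, 150, 249 and 152 CPM in Cdo1AKO, and a log2 fold change of -0.66 ± 0.29. Mgst2, which can also make leukotriene C4, went the other way, with 25.4, 19.2 and 25.8 CPM in controls and 32.5, 31.8 and 36.8 CPM in Cdo1AKO (0.52 ± 0.17, adjusted p = 0.409 by edgeR). Its groups did not overlap, and it was the single member whose highest library was Cdo1AKO 3.

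The mu-class gene Gstm1 had 286, 226 and 273 CPM in controls and 223, 208 and 205 CPM in Cdo1AKO, a narrow separation with a log2 fold change of -0.31 ± 0.15. Gstm2 and Gstm5, in the same cluster on chromosome 3, had 0.25 ± 0.30 and -0.45 ± 0.29. Genes of this cluster are close copies of each other, as are Gstp1 and its neighbours, so counts could be split among them. Gstz1, which also acts in tyrosine breakdown, averaged 574 ± 156 CPM in controls and ranged from 252 to 896 CPM in Cdo1AKO, with Cdo1AKO 2 on top. The remaining members Gsta3, Gsta4, Gstp1 and Gsto1 had log2 fold changes from -0.09 to 0.42, all with overlapping groups.

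**Figure D2:**
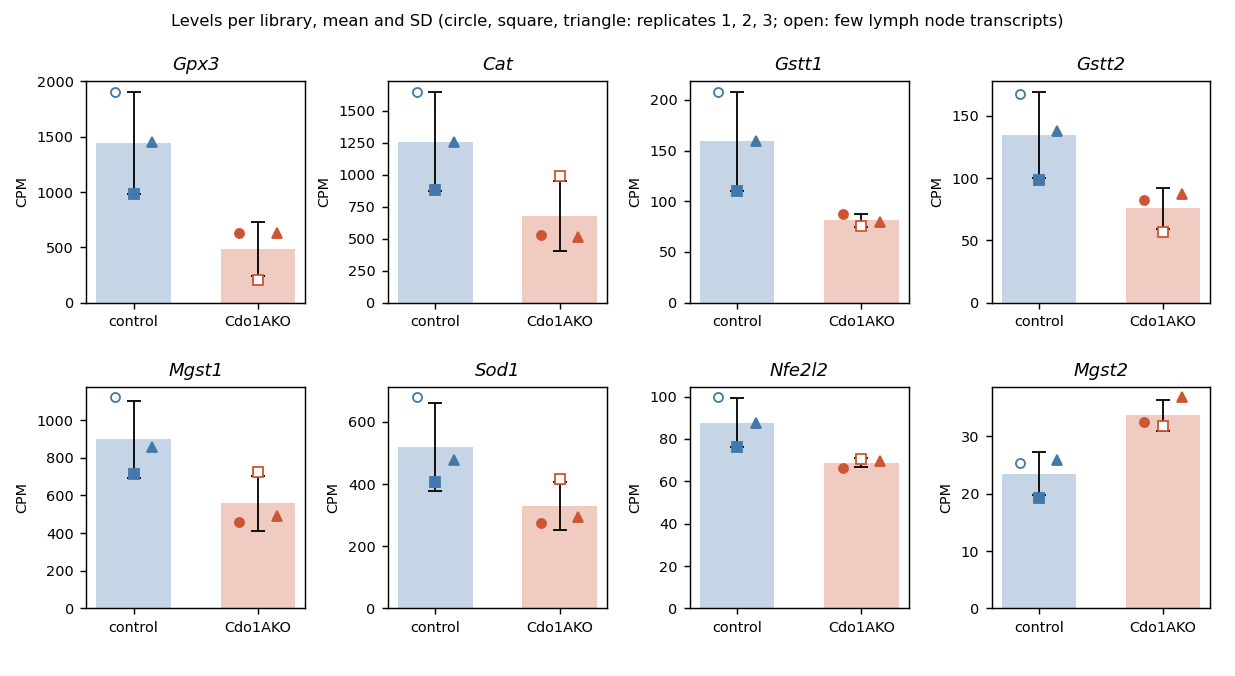
CPM of 8 genes in each library, with bars for the group mean and error bars for the SD (n = 3). Circles, squares and triangles are replicates 1, 2 and 3, and open marks are control 1 and Cdo1AKO 2. Gpx3, Gstt1, Gstt2 and Nfe2l2 were lower and Mgst2 higher in every Cdo1AKO library, while for Cat, Mgst1 and Sod1 Cdo1AKO 2 lay among the controls.

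None of the 4 NRF2 system genes passed the test. Nfe2l2 had 99.6, 76.2 and 87.3 CPM in controls and 66.4, 70.4 and 69.5 CPM in Cdo1AKO. All Cdo1AKO libraries lay below the lowest control by a small margin, with a log2 fold change of -0.35 ± 0.14 (adjusted p = 0.480 by edgeR). Keap1, which marks NRF2 for degradation, had 61.4, 65.3 and 62.9 CPM in controls and 53.6, 65.0 and 58.6 CPM in Cdo1AKO (-0.10 ± 0.13). Nqo1, a quinone reductase and standard NRF2 target, was the scarcest member per length, with 5.95, 3.21 and 5.90 CPM in controls and 5.85, 6.75 and 4.12 CPM in Cdo1AKO. Hmox1, haem oxygenase, had 36.9, 56.5 and 50.2 CPM in controls and 31.4, 114 and 31.5 CPM in Cdo1AKO. Cdo1AKO 2 was the highest library and Cdo1AKO 1 and 3 the lowest, so the log2 fold change of 0.30 ± 0.55 was -0.61 without Cdo1AKO 2.

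Of the 9 thioredoxin and peroxiredoxin genes, 3 shared the arrangement of Hmox1, namely Srxn1, Prdx1 and Prdx6. Thioredoxin reductase Txnrd1 had 99.0, 103 and 114 CPM in controls and 79.5, 103 and 80.2 CPM in Cdo1AKO (-0.26 ± 0.16). Sulfiredoxin Srxn1, which repairs overoxidised peroxiredoxins, had 31.4, 29.7 and 31.7 CPM in controls and 19.8, 52.1 and 18.6 CPM in Cdo1AKO. Its 3 controls agreed closely while the Cdo1AKO libraries lay well below and well above them, and the log2 fold change was -0.04 ± 0.41. In all, Prdx1, Prdx2, Prdx5 and Prdx6 had log2 fold changes from -0.07 to 0.37 with Cdo1AKO 2 as the highest library of each, at 662 CPM for Prdx6 against 193 to 408 CPM elsewhere. Prdx3, the mitochondrial peroxiredoxin, averaged 151 ± 34.5 CPM in controls and 104 ± 32.9 CPM in Cdo1AKO (SD, n = 3; log2 fold change -0.54 ± 0.28). Prdx4, of the endoplasmic reticulum, had 18.2, 19.5 and 17.9 CPM in controls and 21.6, 34.5 and 22.2 CPM in Cdo1AKO. Its groups did not overlap, and its log2 fold change of 0.49 ± 0.22 was 0.24 without Cdo1AKO 2. Thioredoxin itself (Txn1) had -0.01 ± 0.20.

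Catalase and the superoxide dismutases, which act on hydrogen peroxide and superoxide, completed the list. Cat (chr2:103453849-103485160, mm10, minus strand) had 1647, 876 and 1251 CPM in controls and 529, 988 and 510 CPM in Cdo1AKO. Cdo1AKO 1 and 3 stood at well under the lowest control, and Cdo1AKO 2 was above control 2. The groups overlapped, with a log2 fold change of -0.90 ± 0.38 (edgeR adjusted p = 0.488) and of -1.27 without Cdo1AKO 2. Cytosolic Sod1 had 679, 406 and 476 CPM in controls and 274, 418 and 294 CPM in Cdo1AKO, with a log2 fold change of -0.66 ± 0.27. Mitochondrial Sod2 averaged 163 ± 25.2 CPM in controls and ranged from 102 to 320 CPM in Cdo1AKO. Extracellular Sod3 had 642, 574 and 702 CPM in controls and 714, 1221 and 558 CPM in Cdo1AKO (0.38 ± 0.32), which was -0.01 without Cdo1AKO 2.

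Cdo1AKO 2 therefore set the group value of many members. It was the highest of the 6 libraries for 22 of 40 members, against 31.7% of all tested genes, while Cdo1AKO 1 or 3 was the lowest for 27, against 32.8%. For 11 members (Gclm, Gss, Gpx4, Gsta3, Gstp1, Gstz1, Hmox1, Srxn1, Prdx1, Prdx6 and Sod2) Cdo1AKO 1 and 3 lay below every control and Cdo1AKO 2 above every control, an arrangement held by 10.5% of all tested genes. Without Cdo1AKO 2, 34 of 40 members had a negative log2 fold change and the median was -0.38, against 0.01 over all genes tested in that fit. That fit called 0 members, with 21 at an unadjusted p under 0.05 by edgeR, beside 27.3% of the 17255 genes tested in it.

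The same comparison was made within the 4 libraries that hold lymph node transcripts, control 2 and 3 against Cdo1AKO 1 and 3. There 15 of 40 members passed, beside 15.3% of 17049 genes tested. Of these, 14 fell, beside 7.70% of all genes tested, and 1 rose, beside 7.65%. Those that fell were Gss, Gpx3, Gstt1, Gstz1, Mgst1, Mgst3, Hmox1, Txnrd1, Srxn1, Prdx3, Prdx6, Sod1, Sod2 and Cat, and Mgst2 rose. Cat had -1.04 ± 0.18 (adjusted p = 0.0127 by edgeR), Gpx3 -0.96 ± 0.19 (adjusted p = 0.0196) and Gstz1 -0.94 ± 0.17 (adjusted p = 0.0146), and Mgst2 had 0.62 ± 0.16 (adjusted p = 0.0461). In the same fit 10 of 12 adipocyte markers fell, with a median log2 fold change of -0.74 over the 12, and all 10 T cell markers rose, with a median of 1.77; their part in the result was not tested. This fit rests on 2 libraries per group, and the spread within Cdo1AKO comes from the unusually similar pair. With all 6 libraries and a term for lymph node transcripts, 1 member passed, Mgst3 with -0.67 ± 0.14 (adjusted p = 0.0488 by edgeR), beside 4.13% of all tested genes, 1.87% lower and 2.26% higher. DESeq2 run on the genes past edgeR's filter, a choice made after seeing the data, called 1 member, Gstt1, which was lower, beside 1.54% of genes called lower and 0.825% called higher.

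Control 1 and Cdo1AKO 2, the libraries with few lymph node transcripts, are 1 per group and allow no test. Between them Cdo1AKO 2 stood at 0.108 times control 1 for Gpx3, 0.364 times for Gstt1, 0.340 times for Gstt2 and 0.600 times for Cat. It stood at 3.10 times control 1 for Hmox1, 2.36 times for Gpx7, 1.69 times for Sod2, 1.66 times for Srxn1 and 1.62 times for Prdx6. Gpx3, Gstt1, Gstt2 and Cat were thus lower in Cdo1AKO on both sides of this split. For Gpx3, Gstt1 and Gstt2 this follows from groups that do not overlap and adds no support. Gsr, Gpx1, Gpx8, Gstm1, Gstm5, Mgst1, Mgst3, Nfe2l2, Prdx3 and Sod1 were also lower on both sides. Ggt5, Gpx7, Gsta4, Gsto1, Mgst2, Nqo1, Prdx4 and Prdx5 were higher on both. For Gsr, Gpx1, Gstm1, Nfe2l2, Ggt5, Gpx7, Mgst2 and Prdx4 this again follows from groups that do not overlap and adds no support. Hmox1, Srxn1, Sod2 and Prdx6 were among those that differed in direction between the sides, a difference that was not tested.

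**Figure D3:**
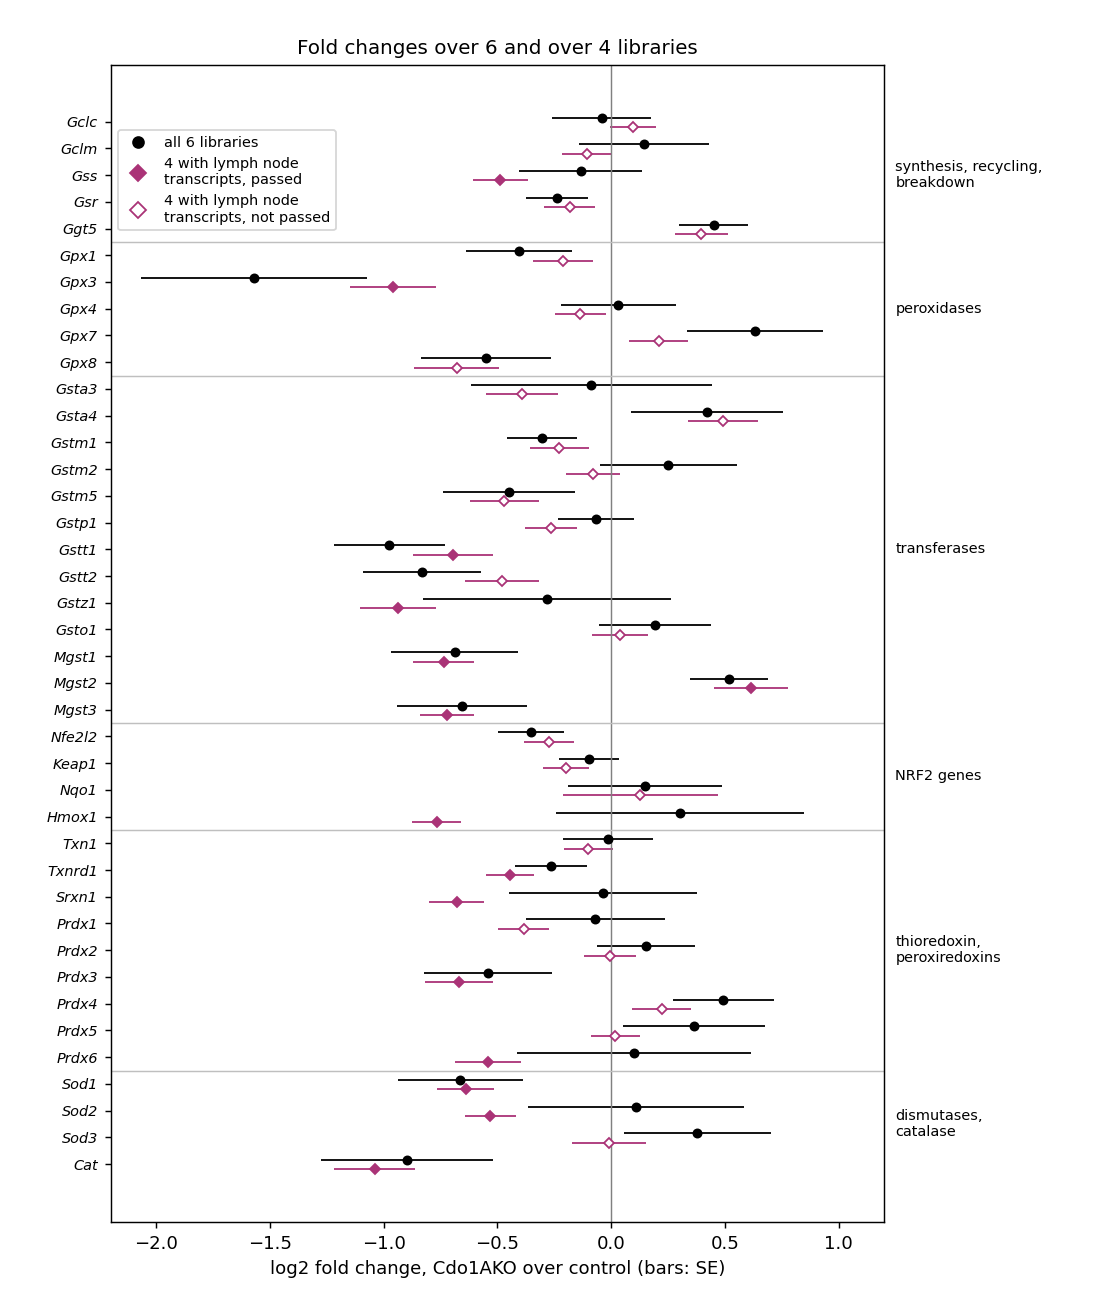
Log2 fold change of Cdo1AKO over control for the 40 genes with its SE, over all 6 libraries (black) and over the 4 libraries with lymph node transcripts (purple, filled where adjusted p was under 0.05 by edgeR). None of the black values passed, and 15 of the purple ones did, 14 of them below 0.

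The level of adipocyte markers moved with many of these genes. The 12 adipocyte markers summed to 49090, 34620 and 40480 CPM in control 1 to 3 and to 22380, 44500 and 23460 CPM in Cdo1AKO 1 to 3. The same order of controls, 1 above 3 above 2, was held by 27 of 40 members against 29.6% of all tested genes, and 32 members had Cdo1AKO 2 as the highest of its group against 46.5%. Divided by the adipocyte sum, 2 members were lower in every Cdo1AKO library than in any control, Gpx3 and Cat, beside 1.59% of all tested genes. Cat, whose groups overlapped in CPM, had 33.6, 25.3 and 30.9 CPM for each 1000 CPM of adipocyte markers in controls and 23.6, 22.2 and 21.7 in Cdo1AKO. Gpx3 had 38.8, 28.4 and 35.9 in controls and 28.2, 4.63 and 26.7 in Cdo1AKO, so that Cdo1AKO 1 came within a small margin of control 2. On this scale Gstt1 and Gstt2 overlapped between the groups and 17 members were higher in every Cdo1AKO library, beside 23.2% of all tested genes. Fabp4 made up 41.0% of the adipocyte sum in controls, all 12 markers had a negative log2 fold change of their own, and their part in the result was not tested.

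**Figure D4:**
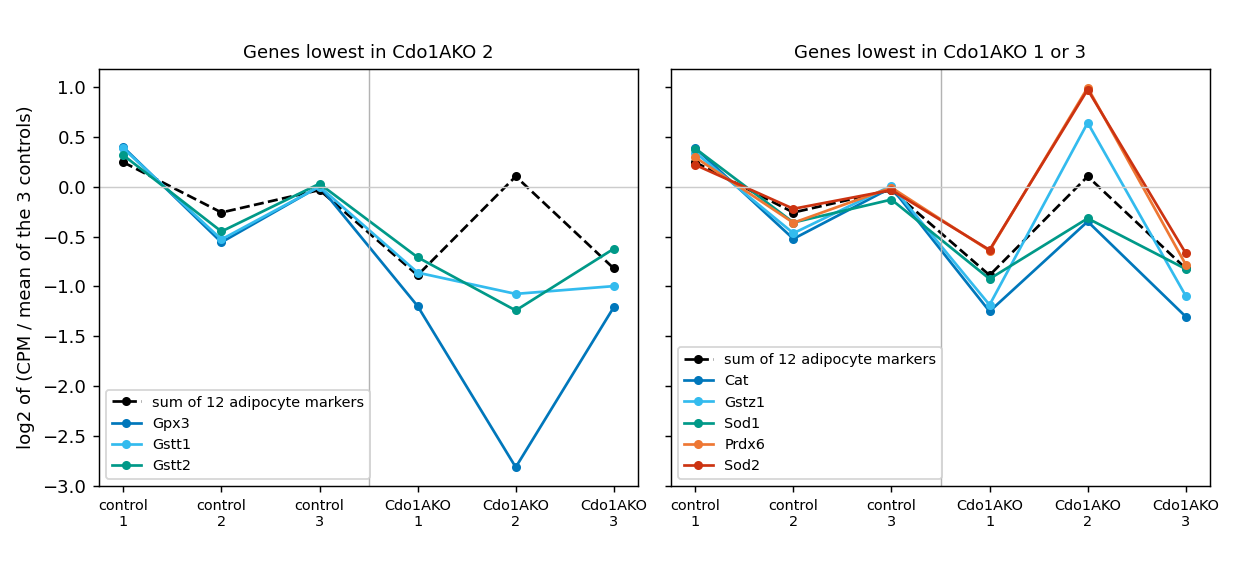
Log2 of level over the mean of the 3 controls in each library, for the sum of 12 adipocyte markers (dashed) and for 8 genes. Gpx3, Gstt1 and Gstt2 were lowest in Cdo1AKO 2, where the adipocyte sum was above those of control 2 and 3; Cat, Gstz1, Sod1, Prdx6 and Sod2 were lowest in Cdo1AKO 1 or 3, where the adipocyte sum was lowest too.

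Markers of other cells also differed between the libraries. The 11 macrophage markers summed to 709 to 863 CPM in controls and 974 to 1070 CPM in Cdo1AKO, and all 11 had a positive log2 fold change. The 10 T cell markers, none of them at 0, summed to 11.97, 394 and 226 CPM in controls and to 998, 15.8 and 1022 CPM in Cdo1AKO, lowest in control 1 and Cdo1AKO 2; all 10 had a positive log2 fold change, with a median of 1.76, and none passed the test over 6 libraries. The 10 stromal markers summed to 2050 to 2930 CPM in controls and to 2150 to 6020 CPM in Cdo1AKO. Their highest value was in Cdo1AKO 2. That library was also the highest for 22 of 40 members, among them Gpx7, Sod3 and Hmox1, against 31.7% of all tested genes. The endothelial markers and the pericyte and smooth muscle markers also summed highest there, at 1996 and 1421 CPM. The 8 Schwann cell markers summed to 137 to 169 CPM in controls and 68.4 to 109 CPM in Cdo1AKO, all with a negative log2 fold change, and the 8 immediate early genes to 172 to 182 CPM and 208 to 570 CPM, all positive. The 9 mitochondrially encoded mRNAs summed to 29600 to 38200 CPM and 20500 to 48700 CPM, lowest in Cdo1AKO 1 and 3. The part of these in the results was not tested.

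Per kilobase of gene length, the most abundant members in controls were Gpx3 at 798, Gpx1 at 624, Cat at 481, Mgst1 at 446 and Gpx4 at 270 CPM per kb. In Cdo1AKO the same genes stood at 269, 472, 259, 277 and 276 CPM per kb. In group means only, Gpx3, the leading gene of controls, thus came level with Gpx4, Mgst1 and Cat. That mean joins unlike libraries, as Gpx3 had 631, 206 and 627 CPM in Cdo1AKO 1 to 3. Gpx4, Mgst1 and Cat were instead at their highest of the group in Cdo1AKO 2. Glutathione synthesis genes were far below these members, at 11.8 CPM per kb for Gclc, 5.83 for Gclm and 4.75 for Gss in controls.

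Other genes of the same pathways gave a similar picture. Of 46 further glutathione and thioredoxin genes 39 were tested and 0 passed; 23 had a negative and 16 a positive log2 fold change, with a median of -0.08. Oplah, which recycles 5-oxoproline from glutathione breakdown, had 214, 124 and 183 CPM in controls and 74.2, 98.5 and 68.5 CPM in Cdo1AKO, with a log2 fold change of -1.11 ± 0.25 (adjusted p = 0.340 by edgeR). Sephs2, which makes the selenium donor for selenoproteins such as some glutathione peroxidases, had 94.7, 53.7 and 69.6 CPM in controls and 28.7, 44.6 and 31.5 CPM in Cdo1AKO. Chac1, a glutathione-degrading enzyme of the stress response, had 54.7, 16.4 and 32.9 CPM in controls and 13.0, 11.5 and 11.3 CPM in Cdo1AKO. All 3 genes were lower in every Cdo1AKO library, and in the authors' deposited table the adjusted p was 0.0235 for Oplah, 0.0647 for Sephs2 and 0.0427 for Chac1. Gstp2 had 4 to 16 counts in controls and 23 to 59 in Cdo1AKO, near the copies Gstp1 and Gstp3.

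Of 28 further NRF2 pathway genes 27 were tested and 0 passed, with 15 negative and 12 positive log2 fold changes and a median of -0.03. Ephx1, microsomal epoxide hydrolase, stood out for its small spread: it had 70.4, 66.1 and 69.0 CPM in controls and 111, 115 and 116 CPM in Cdo1AKO. Cdo1AKO exceeded control by a log2 fold change of 0.74 ± 0.12, at an edgeR adjusted p of 0.230, and in the authors' deposited table its adjusted p was 0.00178. Ugdh (-0.59 ± 0.18), the carbonyl reductase gene Cbr1 (-0.61 ± 0.20) and Mafg (-0.50 ± 0.17), a small MAF partner of NRF2, were lower in every Cdo1AKO library. Genes that make oxidants, 9 tested of 12 listed, had 7 positive log2 fold changes, a median of 0.51 and 0 that passed. Xdh, xanthine oxidoreductase, had -0.52 ± 0.25, and Duox1 rested on 5 to 8 counts in controls and 16 to 66 in Cdo1AKO. Cyba and Ncf1, subunits of the phagocyte NADPH oxidase, had 0.87 ± 0.48 and 0.61 ± 0.66. Cyba had 24.3, 78.1 and 49.6 CPM in controls and 111, 52.8 and 113 CPM in Cdo1AKO. Ncf1 had 12.3, 50.9 and 29.7 CPM in controls and 61.4, 16.5 and 63.7 CPM in Cdo1AKO. Both were lowest of their group in control 1 and Cdo1AKO 2, the libraries with few lymph node transcripts, and the part of this split was not tested.

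The table gives no strand setting, and several members overlap other genes on the opposite strand, among them Gss with Acss2, Prdx2 with Junb and Rnaseh2a, Prdx5 with Trmt112, Gsto1 with Cfap43 and Sod1 with Scaf4. Acss2 held 5993 counts over all libraries against 2847 for Gss, so the low values of Gss are the most exposed to shared reads. Mgst2 overlapped Gm37261 on the same strand, which held 387 counts over all libraries against 3069 for Mgst2. Gpx3, Gstt1, Gstt2 and Cat overlapped no other gene of the table.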

How the data were processed

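Inguinal fat RNA was measured in 3 samples per group. The authors deposited whole-number counts per gene, beside FPKM values that the file headers name and that were used here only to check the columns. Per the submitters' processing notes, reads were handled on the mm10 build with DESeq2 1.20.0, featureCounts 1.5.0-p3 and HISAT2 2.0.5, with no strand setting given in the sources used here. The authors' deposited comparison held log2 fold changes and p-values.

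Counts were analysed with edgeR 4.0.16 (R 4.3.3): filterByExpr, TMM scaling, the quasi-likelihood test over the 6 samples and Benjamini-Hochberg adjustment over 16623 genes at 0.05. The SE was derived from the fold change and its F statistic. DESeq2 1.42.0, limma-voom (limma 3.58.1), other scalings and filters, a replicate block, a lymph node term (median marker CPM above 5 or not), the 4 libraries above that level and each library left out in turn were alternatives. Values in every library were given for members with an adjusted p under 0.05 in either table, those whose groups do not overlap, the 12 of smallest p and 13 of set interest, and of each other list the 4 genes of smallest p were named. The members and lists were chosen with earlier results of these data known. In simulated counts with the estimated spread, the edgeR test found none of the 85 genes given a 1.5-fold change, none of 67 given a 2-fold one and 1 of 48 given a 4-fold one, among 16623. Replicate numbers were not used to pair the samples in the main test, and the labels name no pairing.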

Additional observations from a re-analysis of the deposited data

How the results depend on the processing

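No member passed under the other scalings, filters, limma-voom, robust estimation or with any library left out. DESeq2 called 274 genes and 0 members over all genes, and 392 genes and 1 member (Gstt1) over the genes past edgeR's filter, a setting chosen after seeing the data. The lymph node term gave 686 genes and 1 member, and the 4 libraries with lymph node transcripts gave 2617 genes and 15 members; the cause was not tested. Members whose groups do not overlap numbered 11, beside 18.6% of all tested genes, and 33 in those 4 libraries, beside 62.0%. With 1 library left out they numbered 11 to 32, with 17 without control 2, beside 31.0%, and 32 without Cdo1AKO 2, beside 55.0%; the shares over all genes rise too with fewer samples.

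Of 25 members followed, 17 kept their direction throughout. Sign turned in the 4 libraries for Gclc (0.10), Gclm (-0.11), Gpx4 (-0.13), Hmox1 (-0.77) and Sod3 (-0.0087), and without scaling for Gclc (0.0689). Leaving out 1 library gave -0.15 to 0.16 for Gclc, -0.22 to 0.32 for Gclm, -0.49 to 0.0341 for Gss, -0.23 to 0.18 for Gpx4, -0.0923 to 0.33 for Nqo1, -0.61 to 0.61 for Hmox1, -0.68 to 0.22 for Srxn1 and -0.0065 to 0.60 for Sod3.

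With the replicate block 0 members and 0 genes passed, with 909 genes at an unadjusted p under 0.05 by edgeR against 1724 without it, and Gpx4 stood at -0.0021. Deviations of same-numbered samples correlated at -0.66, -0.66 and 0.42, and no sample correlated best with its own number. Control 1 correlated best with Cdo1AKO 2 (0.69), both with few lymph node transcripts. Because the correlations follow that split, they cannot decide whether the samples were paired. In simulated counts at this spread, the edgeR test found 0 of 67 genes given a 2-fold change and 1 of 48 given a 4-fold one.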
